A study of Glycine max and Glycine soja with 189 samples.

Results

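*GmCOL4a* (Glyma13g01290.1) and *GmCOL4b* (Glyma17g07420.1) are a homeologous gene pair of the *CONSTANS-LIKE* family of soybean. They were taken as the rows with these names in the deposited RPKM values, 2 of 73320 transcripts, and each locus is listed with 1 transcript. Their levels come from RNA sequencing of 63 groups with 3 biological replicates each, which combine 7 genotypes with 3 photoperiods and 3 times of day. RPKM scales the read number to the length of the transcript and the depth of the library, so levels of both genes can be set side by side per length.

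Plants of LD-SD were kept for 3 weeks in long days and then for 5 days in short days. SD plants had 10 hours of light throughout and LD plants had 16 hours. All were sampled 26 days after planting according to the labels, at T1 (6:30, shortly before lights on), T3 (14:30, in the light in every treatment) and T5 (22:30, in the dark in SD and LD-SD and shortly before lights off in LD). The genotypes were the cultivar Williams 82 (E2, other loci not given in the sources used here), the near isogenic lines L65-3366 (E1E2E3E4e5E7), L66-432 (e1e2E3E4e5E7), L74-441 (e1E2e3E4e5E7) and L92-1195 (e1E2e3E4E5E7), the wild soybean *Glycine soja* (alleles not given) and the cultivar Clark (e1E2E3E4e5E7). Each genotype is a single line. The labels give all plants the same age, but the methods give sampling 3 weeks after germination. Shift plants there had 3 weeks of long days and then 5 days of short days. Whether LD-SD plants were older than the others could therefore not be checked. The labels give the first trifoliate leaf as the tissue, while the methods describe a whole shoot above the cotyledon, and the tissue could not be checked against marker genes, because no locus of the files matched the reference gene table. In such bulk tissue, fewer cells that express a gene and less mRNA per cell cannot be told apart.

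*CONSTANS-LIKE* proteins carry B-box zinc fingers and a CCT domain and are known as regulators of transcription. In Arabidopsis, *CONSTANS* connects the circadian clock with day length: its mRNA follows a daily rhythm, its protein is stabilised by light, and it activates the florigen gene *FT*. Soybean is a short-day plant that flowers earlier when days are short, and its ancient genome duplications left most *CONSTANS-LIKE* genes as pairs of homeologs.

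Mapped reads per library lay between 4.92 and 18.2 M (median 9.54 M). *GmCOL4a* was covered by 97 to 4434 reads (median 1567) and *GmCOL4b* by 27 to 3448 reads (median 946), so both genes were detected in every library. In their whole profile, 184 libraries were most like the mean of their own photoperiod and time point. Genotype marker transcripts went against the label in 6 libraries: LD Williams 82 T1 A, LD L65-3366 T1 A, LD-SD L66-432 T5 B, LD-SD L74-441 T3 B, and LD-SD L74-441 T5 B and C. Only Williams 82, L74-441 and *Glycine soja* had enough marker transcripts, so exchanges among the other genotypes could not be seen. A seventh library, of LD-SD L92-1195 at T5, carries a replicate letter that no sample record of its group has, and its profile was most like LD-SD at T3. These 7 libraries were kept in their labelled groups, and values without them are given beside the results of the pair that they moved most.

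The pair differed most between photoperiods at T3, in the afternoon. The lowest, median and highest levels of *GmCOL4a* at T3 were 80.8, 144 and 203 RPKM in LD-SD, 88.7, 139 and 175 RPKM in SD and 15.6, 32.0 and 56.7 RPKM in LD (n = 21 each). For *GmCOL4b* they were 58.5, 97.6 and 140 RPKM in LD-SD, 91.2, 127 and 157 RPKM in SD and 10.9, 20.1 and 36.2 RPKM in LD. Every library of SD and of LD-SD thus stood above every library of LD for both genes. Such a separation, with the short-day libraries higher, was found for 2.87% of the transcripts tested between SD and LD and for 1.73% between LD-SD and LD.

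At T3 the mean of *GmCOL4a* was 4.06 times as high in SD as in LD, with a range of 2.89 times in Williams 82 to 5.54 times in L74-441. For *GmCOL4b* the mean was 6.05 times as high, from 4.20 times in *Glycine soja* to 8.33 times in L92-1195. In limma on log2(RPKM + 1), averaged over the genotypes, SD minus LD was 2.02 for *GmCOL4a* (standard error 0.125, adjusted p = 1.55e-26) and 2.60 for *GmCOL4b* (standard error 0.0951). At this time point 20.3% of all transcripts tested were called higher in SD, and the median difference over all transcripts was -0.10. LD-SD minus LD was 2.05 for *GmCOL4a* (standard error 0.142, adjusted p = 4.00e-27) and 2.22 for *GmCOL4b* (standard error 0.129, adjusted p = 1.97e-33), where 21.6% of all transcripts were called higher in LD-SD. The comparisons of SD and of LD-SD share the LD libraries.

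**Figure D1:**
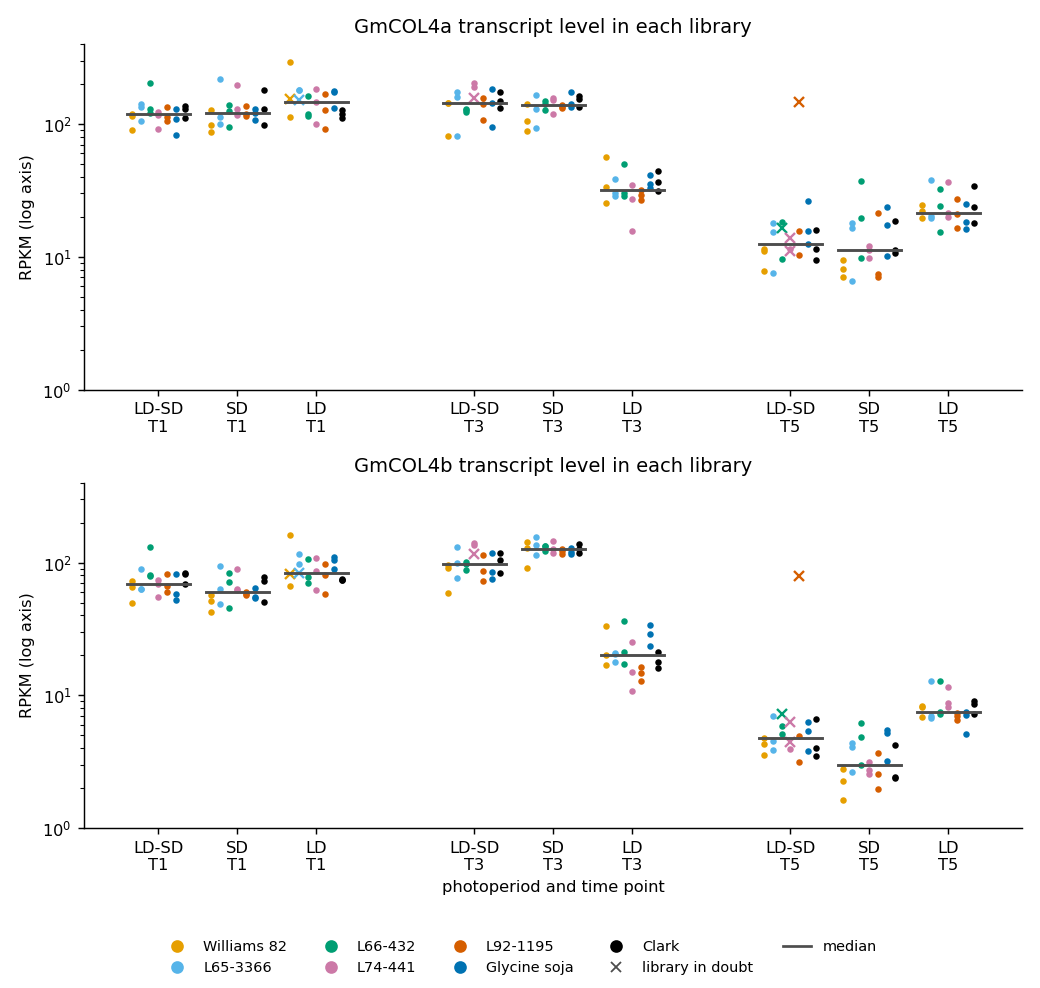
RPKM (log axis) of *GmCOL4a* (top) and *GmCOL4b* (bottom) in every library, by time point and, within it, LD-SD, SD and LD; points are libraries coloured by genotype, lines are medians of 21 libraries, and crosses are the 7 libraries in doubt. At T3 the LD libraries lie below all others (15.6 to 56.7 RPKM for *GmCOL4a*), and at T5 a cross of L92-1195 stands far above its group (147 RPKM for *GmCOL4a*).

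Before dawn, at T1, the levels were high in every treatment. *GmCOL4a* had a lowest, median and highest level of 82.4, 119 and 203 RPKM in LD-SD, 86.6, 120 and 217 RPKM in SD and 92.1, 147 and 291 RPKM in LD. The 3 ranges overlapped almost in full, and neither SD minus LD (-0.21, standard error 0.125, adjusted p = 0.144 in limma) nor LD-SD minus LD (-0.27, standard error 0.142, adjusted p = 0.0949) passed the threshold. LD-SD minus LD passed it with an adjusted p of 0.0414 in limma without the 7 libraries. The 291 RPKM belonged to replicate B of Williams 82 in LD, whose other replicates had 154 and 114 RPKM.

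*GmCOL4b* at T1 had 49.2, 68.99 and 132 RPKM in LD-SD, 42.4, 59.95 and 93.5 RPKM in SD and 57.6, 84.0 and 162 RPKM in LD, again as lowest, median and highest. It was lower in SD than in LD by a log2 difference of -0.49 (standard error 0.0951, adjusted p = 4.25e-06 in limma), and the mean was lower in SD in 7 of 7 genotypes. Of all transcripts tested, 28.9% were called lower in SD at T1. LD-SD minus LD was -0.29 (standard error 0.129, adjusted p = 0.0448 in limma), a call that was lost without *Glycine soja* (-0.23, adjusted p = 0.181), without replicate A or B, and under 3 of the other settings. The share of all transcripts called lower in LD-SD at T1 was 27.1%.

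At T5, in the dark in SD and LD-SD but shortly before lights off in LD, both genes were at their lowest. *GmCOL4a* had a lowest, median and highest level of 7.61, 12.5 and 147 RPKM in LD-SD, 6.55, 11.2 and 37.2 RPKM in SD and 15.4, 21.4 and 37.5 RPKM in LD. *GmCOL4b* had 3.14, 4.78 and 79.7 RPKM in LD-SD, 1.64, 3.00 and 6.19 RPKM in SD and 5.11, 7.46 and 12.9 RPKM in LD. The medians of both genes were thus lowest in SD and highest in LD, whereas at T3 they were lowest in LD, and the ranges overlapped. The 147 and 79.7 RPKM come from the library of L92-1195 without a matching record. The other L92-1195 libraries of this group had 15.6 and 10.3 RPKM of *GmCOL4a* and 4.92 and 3.14 RPKM of *GmCOL4b*.

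SD minus LD at T5 was -0.81 for *GmCOL4a* (standard error 0.125, adjusted p = 4.06e-08 in limma) and -1.08 for *GmCOL4b* (standard error 0.0951, adjusted p = 2.52e-17), against 20.4% of all transcripts called lower in SD. The mean was lower in SD in 7 of 7 genotypes for both genes. Comparisons with LD at T5 set plants in the dark against plants still in the light. LD-SD minus LD was -0.61 for *GmCOL4a* (standard error 0.142, adjusted p = 2.67e-04 in limma) and -0.44 for *GmCOL4b* (standard error 0.129, adjusted p = 0.00411), against 14.4% of all transcripts called lower in LD-SD. Without the 7 libraries these differences were -0.80 and -0.69. They missed the threshold without replicate C (-0.31 and -0.28), and that of *GmCOL4b* also without replicate A (-0.33). On the log2(RPKM + 1) scale the change of *GmCOL4b*, which was near 3 RPKM in SD, is understated. The ratio of means of SD to LD was 0.418 for *GmCOL4b* and 0.594 for *GmCOL4a*.

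After 5 days in short days, *GmCOL4a* could not be told from continuous SD at any time point. LD-SD minus SD was -0.06 before dawn, 0.04 in the afternoon and 0.19 at night, with a standard error of 0.142 at each (adjusted p = 0.788, 0.85 and 0.268 in limma). Without the 7 libraries the difference at night was 0.00674 (adjusted p = 0.975 in limma). *GmCOL4b* differed from continuous SD at T3 and T5. It was lower in LD-SD at T3 by -0.37 (standard error 0.129, adjusted p = 0.0105 in limma, with a lower mean in 7 of 7 genotypes but a nearly equal one in L74-441) and higher in LD-SD at T5 by 0.63 (adjusted p = 1.82e-05 in limma, higher in 7 of 7). At these time points 19.2% of all transcripts were called lower and 16.8% higher in LD-SD. The difference at T5 was 0.39 without the 7 libraries (adjusted p = 0.00133 in limma), and that at T3 missed the threshold without replicate A (-0.41) or B (-0.29). At T1 the difference was 0.20 (adjusted p = 0.244 in limma).

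The photoperiod difference of the genes changed with the time of day. The interaction of time point and SD minus LD passed the test for both genes, as it did for 79.3% of all transcripts. That with LD-SD minus LD passed for both, as for 70.5%. This test does not show at which time a gene was highest. T1 and T3 of *GmCOL4a* could not be told apart in SD or LD-SD by the test of T3 minus T1 given below. In LD, the mean was highest at T1 in 7 of 7 genotypes for both genes. In SD it was highest at T3 in 7 of 7 genotypes for *GmCOL4b*, and for *GmCOL4a* in 5 of 7, with L65-3366 and L74-441 highest at T1. In LD-SD the mean was highest at T3 in 6 of 7 genotypes for both genes, L66-432 being highest at T1. That exception rests on replicate C of L66-432 at T1, with 203 RPKM of *GmCOL4a* and 132 RPKM of *GmCOL4b*. Replicates A and B had 122 and 129 RPKM of *GmCOL4a* and 79.1 and 81.2 RPKM of *GmCOL4b*. In replicate C 68.4% of the recorded reads were mapped, and its profile was most like SD at T1. It is not among the 7 libraries in doubt. The lowest level fell at T5 in every genotype and treatment, apart from *GmCOL4a* of L74-441 in LD, which was lowest at T3.

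The day course of both genes passed the test in every photoperiod, where 78.7% of all transcripts did so in LD-SD, 85.4% in SD and 79.6% in LD. T3 minus T1 separated the pair. In SD it was 0.12 for *GmCOL4a* (standard error 0.125, adjusted p = 0.398 in limma) and 1.02 for *GmCOL4b* (standard error 0.0951, adjusted p = 6.76e-17), and in LD-SD 0.22 for *GmCOL4a* (adjusted p = 0.169 in limma) and 0.45 for *GmCOL4b* (adjusted p = 0.00148). In LD it was -2.10 for *GmCOL4a* and -2.07 for *GmCOL4b*. T3 minus T1 was called higher for 37.9% of all transcripts in LD-SD and for 33.6% in SD, and lower for 17.8% in LD. T3 minus T1 of *GmCOL4a* in SD was 0.29 without replicate B, which then passed the threshold (adjusted p = 0.0450 in limma), and that of *GmCOL4b* in LD-SD missed it without replicate A (0.34, adjusted p = 0.0959 in limma).

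From T3 to T5 the pair dropped steeply in short days. T5 minus T3 was -3.17 for *GmCOL4a* and -3.90 for *GmCOL4b* in LD-SD, and -3.33 for *GmCOL4a* and -4.90 for *GmCOL4b* in SD. Without the 7 libraries in doubt it was -3.37 for *GmCOL4a* and -4.15 for *GmCOL4b* in LD-SD, so the order of LD-SD and SD turned for *GmCOL4a*. In LD, where both genes were already low at T3, it was -0.51 for *GmCOL4a* (adjusted p = 3.87e-04 in limma) and -1.23 for *GmCOL4b* (adjusted p = 1.68e-20). Of all transcripts, 20% were called lower in LD-SD, 17.7% in SD and 21.9% in LD. All 21 libraries of *GmCOL4b* in SD at T5 stood below all 21 at T3, a separation that 3.92% of all transcripts had.

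The 9 combinations of photoperiod and time point can be ordered by the mean of 21 libraries. *GmCOL4a* was highest in LD T1 (149 ± 43.5 RPKM, SD of 21 libraries), followed by LD-SD T3 (143 ± 33.3), SD T3 (137 ± 22.1), SD T1 (128 ± 33.3) and LD-SD T1 (121 ± 24.7 RPKM). Neighbours in this order were compared in the fit of every library, so adjusted p-values can differ from those given above. None of these 5 combinations differed from its neighbour, the lowest adjusted p being 0.462 in limma. A gap of 1.83 on the log2 scale (adjusted p = 7.20e-24 in limma) set them apart from LD T3 (33.8 ± 8.97 RPKM), LD T5 (23.5 ± 6.64), LD-SD T5 (19.8 ± 29.4) and SD T5 (14.0 ± 7.43 RPKM). Among these low levels, LD-SD T5 and SD T5 did not pass the test (adjusted p = 0.268 in limma), and the other neighbours did. Without the libraries in doubt the mean of LD-SD T5 was 13.4 ± 4.71 RPKM (SD, n = 17) and stood below SD T5.

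*GmCOL4b* had another order. SD T3 came first (127 ± 13.7 RPKM), then LD-SD T3 (99.4 ± 21.7), LD T1 (89.6 ± 23.4), LD-SD T1 (72.7 ± 17.6) and SD T1 (62.9 ± 14.0 RPKM). LD-SD T3 and LD T1 (adjusted p = 0.297 in limma), and LD-SD T1 and SD T1 (adjusted p = 0.244), were neighbours that did not pass the test. LD T3 (21.0 ± 7.02 RPKM), LD-SD T5 (8.50 ± 16.4), LD T5 (8.15 ± 1.98) and SD T5 (3.40 ± 1.25 RPKM) followed. The mean of LD-SD T5 was 4.74 RPKM without the libraries in doubt and then stood below LD T5. At SD T3, 475 transcripts had a higher mean than *GmCOL4b*, and at SD T5 29605 had.

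The ratio of the homeologs shows where they part. *GmCOL4a* was the more abundant of the pair in most libraries, but not by a fixed proportion. At T1 the ratio of *GmCOL4a* to *GmCOL4b* had a lowest, median and highest value of 1.54, 1.65 and 2.12 in LD-SD, 1.66, 2.02 and 2.39 in SD and 1.47, 1.64 and 1.88 in LD. At T3 it was 1.07, 1.41 and 1.69 in LD-SD, 0.696, 1.08 and 1.38 in SD and 1.05, 1.67 and 2.16 in LD. At T5 it was 1.81, 2.58 and 4.18 in LD-SD, 2.48, 3.86 and 6.01 in SD and 2.06, 2.93 and 3.81 in LD. The homeologs were thus nearest to equal in the SD afternoon, the one treatment and time with libraries below 1, and farthest apart in the SD night. The libraries below 1 were those of Williams 82 (0.972, 0.809 and 0.986) and replicate C of L65-3366 (0.696), and the other genotypes had none.

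**Figure D2:**
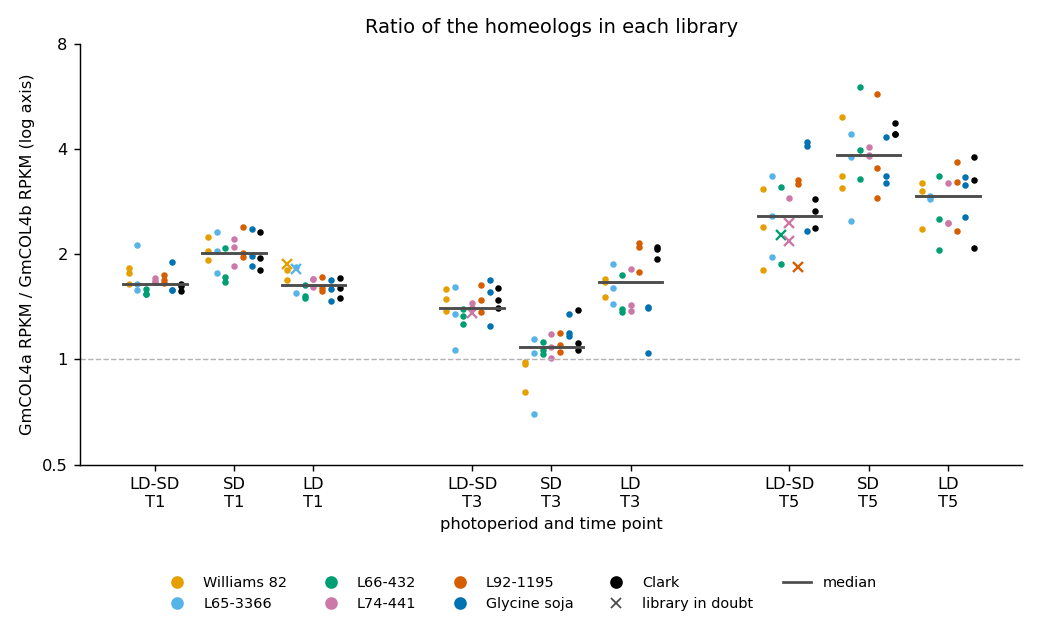
Ratio of *GmCOL4a* RPKM to *GmCOL4b* RPKM (log axis) in every library, by time point and, within it, LD-SD, SD and LD; points are libraries coloured by genotype, lines are medians of 21 libraries, crosses are the 7 libraries in doubt, and the dashed line marks equal levels. The SD medians swing from 2.02 at T1 through 1.08 at T3 to 3.86 at T5, while those of LD are 1.64, 1.67 and 2.93.

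Differences of log2((*GmCOL4a* + 1)/(*GmCOL4b* + 1)) were tested by permutation within genotypes, with p-values adjusted over 21 comparisons. Here 1.75e-05 is the lowest adjusted p, which 12 comparisons share because none of their permutations reached the observed difference. SD minus LD was 0.29 at T1 (standard error 0.0406, permutation test, adjusted p = 1.75e-05) and -0.58 at T3 (standard error 0.0552, adjusted p = 1.75e-05), positive in 7 of 7 genotypes at T1 and negative in 7 of 7 at T3. At T5 it was 0.27 (standard error 0.0975, permutation test, adjusted p = 0.00792, positive in 7 of 7), and this missed the threshold without replicate B (0.14) or C (0.29). Adding 1 RPKM to both genes shrinks the ratio most where *GmCOL4b* is low, near 3 RPKM in SD at T5. Ratio differences that involve T5 are therefore not comparable in size with those of T1 and T3.

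LD-SD minus SD of the ratio was -0.27 before dawn, 0.41 in the afternoon and -0.44 at night (permutation tests, adjusted p = 1.75e-05, 1.75e-05 and 2.58e-04), with the same sign in 7 of 7 genotypes at each time point. The ratio after the shift was therefore away from that of continuous SD at all 3 times. LD-SD minus LD was 0.02 at T1 (permutation test, adjusted p = 0.540), -0.17 at T3 (adjusted p = 0.00792) and -0.17 at T5 (adjusted p = 0.0805). The difference at T3 missed the threshold without replicate B (-0.15) or C (-0.14), and that at T5 passed it without replicate A (-0.29) or without *Glycine soja* (-0.22). Over the day, T3 minus T1 of the ratio was -0.23 in LD-SD and -0.90 in SD (permutation tests, adjusted p = 1.75e-05 each) and -0.03 in LD (adjusted p = 0.614). T5 minus T3 was 0.73 in LD-SD, 1.57 in SD and 0.72 in LD (permutation tests, adjusted p = 1.75e-05 each).

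Reads of such a pair can match both copies, and the sources used here do not give the rule by which they were assigned. How far this moved the ratio, or the correlations between both genes, was not tested. The level of *GmCOL4b* at T5 in SD rests on a median of 58 reads per library.

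No difference of the pair among genotypes passed the test in the model without a replicate block. With the block, *GmCOL4b* in LD did (adjusted p = 0.0263 in limma). The F-test among the 7 genotypes gave adjusted p = 0.268 in LD-SD, 0.596 in SD and 0.949 in LD for *GmCOL4a* and 0.177, 0.510 and 0.193 in the same order for *GmCOL4b* (limma), where 25.2%, 14.5% and 16.7% of all transcripts passed. Of 63 single contrasts (6 genotypes minus Clark and L92-1195 minus L74-441, by photoperiod and time point), 0 passed in limma for either gene, with 2 for *GmCOL4a* and 3 for *GmCOL4b* at an unadjusted p below 0.05. Over all transcripts 1.64% of these contrasts were called. Without replicate A, 1 passed for each gene, and without replicate C, 1 passed for *GmCOL4a* and 2 for *GmCOL4b*. The largest, L92-1195 minus Clark in LD-SD at T5 (1.22 for *GmCOL4a* and 1.18 for *GmCOL4b*), rest on the library in doubt. The ratio did not separate the genotypes either (permutation tests, adjusted p = 0.626 in LD-SD, 0.665 in SD and 0.139 in LD). In LD without replicate B the adjusted p of the ratio was 0.00753 (permutation test).

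Some spread among genotypes is nevertheless visible in the means. In SD, Williams 82 had the lowest mean of the 7 genotypes for both genes at all 3 time points. For *GmCOL4b* at T3 the means were nearly equal. Williams 82 had 121.1 RPKM (standard deviation 26.8), *Glycine soja* 121.4 RPKM and L92-1195 121.8 RPKM. *GmCOL4a* of Williams 82 averaged 104 RPKM before dawn, 111 RPKM in the afternoon and 8.20 RPKM at night in SD, against 137, 151 and 13.6 RPKM in Clark. In LD at T1 the order was turned, with the highest mean of *GmCOL4a* in Williams 82 (186 ± 93.0 RPKM) and the lowest in Clark (119 ± 8.69 RPKM, SD, n = 3 each). The place of Williams 82 rests on replicate B (291 RPKM), against 154 RPKM in A and 114 RPKM in C. Its replicate A is among the libraries in doubt. In LD at T3 the ratio was lowest in *Glycine soja* (1.29 ± 0.210) and highest in Clark (2.04 ± 0.0850).

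The afternoon difference between photoperiods was called in every line. At T3, SD was higher than LD in 7 of 7 genotypes taken singly for both genes, where 9.33% of the contrasts over all transcripts were called higher. The same held for LD-SD against LD in 7 of 7, where 7.62% were called. At T5, SD was lower than LD in 4 of 7 genotypes for *GmCOL4a* and in 6 of 7 for *GmCOL4b* (5.53% of all contrasts), and LD-SD was lower than LD in 0 of 7 for either (1.79%), with 4 of *GmCOL4a* and 3 of *GmCOL4b* at an unadjusted p below 0.05 in limma. The count of 0 for LD-SD became 2 for *GmCOL4a* and 1 for *GmCOL4b* with a replicate block, and 1 for *GmCOL4a* without the 7 libraries. The count of 4 for *GmCOL4a* in SD became 2 without replicate A and 0 without replicate C. At T1, SD was lower than LD in 0 of 7 for *GmCOL4a* and in 2 of 7 for *GmCOL4b*, Williams 82 and *Glycine soja* (11.9%). The count of 2 became 1 without replicate B, without replicate C or without *Glycine soja*. The interaction of genotype and SD minus LD had adjusted p = 0.986 for *GmCOL4a* and 0.589 for *GmCOL4b* in limma, where 1.22% of all transcripts passed. For LD-SD minus LD it was 0.686 for *GmCOL4a* and 0.466 for *GmCOL4b*, where 1.31% passed. With a replicate block that of *GmCOL4b* passed (adjusted p = 0.0396 in limma).

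**Figure D3:**
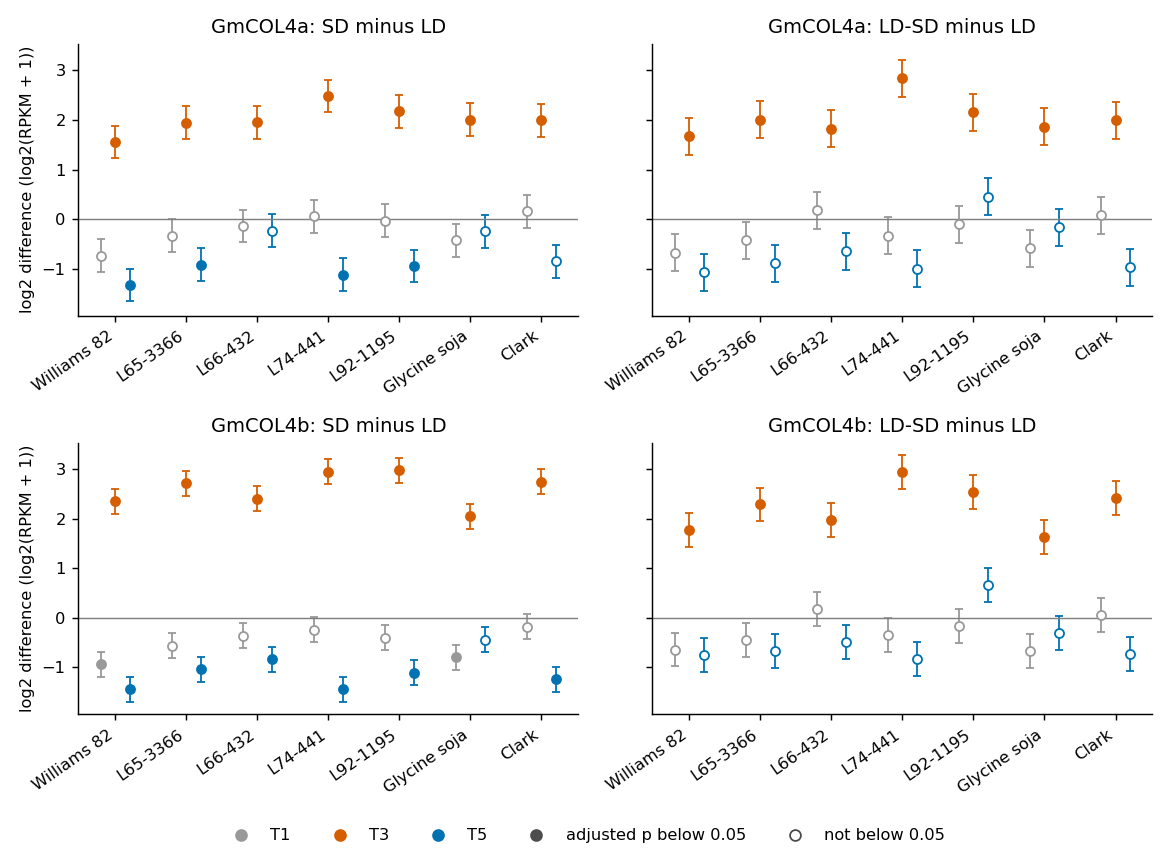
Log2 difference on the log2(RPKM + 1) scale of SD minus LD (left) and LD-SD minus LD (right) in each genotype, for *GmCOL4a* (top) and *GmCOL4b* (bottom); colours are time points, bars are standard errors of limma, and filled points have an adjusted p below 0.05. At T3 all points lie between 1.55 and 2.98, and at T5 the LD-SD point of L92-1195 stands above 0 with the library in doubt.

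Replicates of a group varied by a median of 22.3% of the mean for *GmCOL4a* and 20.4% for *GmCOL4b* (standard deviation of 3 libraries). Within a group both genes deviated together. Over all libraries the deviations from the group means on log2(RPKM + 1) had Pearson's r = 0.881 and Spearman's rho = 0.840 (permutation within groups, p = 1e-05 each, the smallest it can give), and r = 0.839 without the 2 libraries farthest from the median. Within treatments r was 0.929 in LD-SD, 0.842 in SD and 0.867 in LD (5 relations computed, adjusted p = 1e-05 by permutation for each). Both values of a point come from 1 library. In some conditions libraries with the same replicate letter also stood on the same side across genotypes. In SD at T1, replicate B had the highest *GmCOL4a* in 6 of 7 genotypes, and in LD at T1 again in 6 of 7. In SD at T3, by contrast, A, B and C were highest in 3, 2 and 2 genotypes, and in LD at T5 in 3, 1 and 3. Differences averaged over genotypes treat libraries of the same letter as independent, so their standard errors and p-values may be too small.

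Over the 63 group means, each gene of the pair was the transcript most like the other among 45419 with a mean of at least 1 RPKM at other loci (Pearson's r = 0.984 across groups, as a description). The next was Glyma12g05570.1 for *GmCOL4a* (r = 0.979) and Glyma15g05850.1 for *GmCOL4b* (r = 0.973). All transcripts of such a list share the same libraries and the same day and photoperiod means. The group means include the libraries in doubt, and the likeness was not computed without them. With Spearman's correlation, *GmCOL4a* was the transcript ranked 11 for *GmCOL4b*, and with SD and LD groups alone it ranked 2.

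Other flowering genes named with a locus in the study were set beside the pair, with 1 transcript for each locus. Of these 10, SD was higher than LD for 7 and lower for 3 at T1, where 33% and 28.9% of all transcripts were. At T3 it was higher for 5 and lower for 3 (20.3% and 43.6% of all transcripts), and at T5 higher for 5 and lower for 2 (35.3% and 20.4%). Their median log2 difference was 1.05, 0.23 and 0.16 at these times, against 0.02, -0.10 and 0.05 over all transcripts. LD-SD was higher than LD for 6 and lower for 3 at T1 (31.7% and 27.1% of all transcripts), for 6 and 4 at T3 (21.6% and 32.4%), and for 4 and 2 at T5 (17.8% and 14.4%).

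*GmCOL1a* and *GmCOL1b*, close homologs of *CONSTANS*, were higher in SD at T1 (2.23 and 2.38 on the log2 scale) and lower in SD at T5 (-3.48 and -3.85), and higher by 0.41 and 1.01 at T3. *GmCOL2a* and *GmCOL2b* were lower in SD at T3 (-0.94 and -1.32), where *GmCOL4a* and *GmCOL4b* were higher. The florigen genes *GmFT2a* and *GmFT5a*, whose products carry the flowering signal to the shoot apex, were higher in SD at every time point, by 4.89 and 3.81 at T3. *E1*, a repressor of flowering in soybean, was lower in SD at T1 (-1.05) and T3 (-1.08). It averaged 1.22 RPKM in LD and 0.0197 RPKM in SD at T1. In LD at T3 the means of *GmCOL2a*, *GmCOL2b* and *GmFT2a* were 1.28, 1.89 and 0.205 RPKM. At such low levels the log2(RPKM + 1) scale understates changes, so these differences are not comparable in size with those of the pair. *GmGIa*, the *E2* gene and a homolog of the clock-associated *GIGANTEA*, was lower in SD at T1 (-4.55) and gave 0.05 at T3 (adjusted p = 0.555 in limma). The phytochrome A genes *GmPHYA2* and *GmPHYA3* were higher in SD at T1 (1.06 and 1.04).

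**Figure D4:**
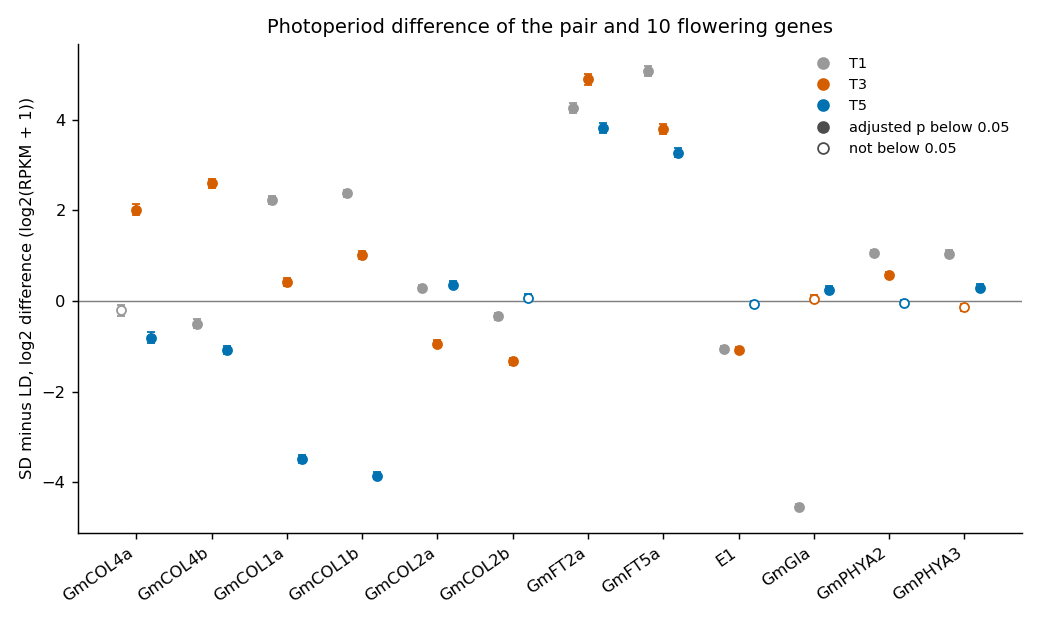
SD minus LD on the log2(RPKM + 1) scale, averaged over 7 genotypes, for *GmCOL4a*, *GmCOL4b* and 10 other flowering genes at T1, T3 and T5; bars are standard errors of limma, and filled points have an adjusted p below 0.05. *GmCOL4a* (2.02) and *GmCOL4b* (2.60) are above 0 at T3 and below 0 at T1 and T5, although *GmCOL4a* at T1 (-0.21) did not pass the test.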

How the data were processed

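The authors mapped reads to the predicted transcripts of Williams 82 with Bowtie, counted them by an in-house script and deposited 1 RPKM value per transcript and library. The version of Bowtie and its treatment of reads with several matches are not given in the sources used here. Of 73320 transcripts, 1 is infinite in every sample and was left out. Mapped reads were recovered from the RPKM values that must be whole reads. Groups came from the deposited labels, and 1 column of LD-SD L92-1195 at T5, whose letter matches no sample, was kept in its group without a letter.

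Values were transformed to log2(RPKM + 1), transcripts averaging under 0.1 RPKM were removed, and a model with 1 coefficient per group was fitted in limma 3.58.1 (R 4.3.3), with Benjamini-Hochberg adjustment over all transcripts and a threshold of 0.05. The scale understates changes of low genes. Comparisons of SD with LD used their own libraries (126), and those with LD-SD used every library. The fit was also run on simulated data with known changes. Their libraries were drawn as independent, so deviations shared by a replicate letter were not covered. The ratio was tested with 100000 two-sided permutations in Python 3.11.15 with numpy 2.4.6. The named genes are the pair, 10 flowering loci named in the study (transcript 3 for *GmGIa*, otherwise transcript 1) and the 5 most similar transcripts of each gene, of which those without a name are given only in part. The members and lists were chosen with earlier results of these data known. Genotype marker transcripts differed by at least 2 on the log2 scale between the median of a genotype and that of each other, and Williams 82, L74-441 and *Glycine soja* had 5 or more. Alternatives were another pseudocount, filters, scalings, replicates or libraries left out, a replicate block, summed transcripts and other fits. The fits with a replicate block left out the library without a letter. The block was additive for photoperiod and time contrasts, and nested in photoperiod and time point for genotype tests.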

Additional observations from a re-analysis of the deposited data

Results flagged for a closer look

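The photoperiod difference of both genes changed with the time of day, by the F-test of the interaction in limma. SD minus LD differed between T1, T3 and T5 for *GmCOL4a* (adjusted p = 5.26e-27) and for *GmCOL4b* (adjusted p = 3.11e-44), where 79.3% of all transcripts passed the same test. It was -0.21, 2.02 and -0.81 for *GmCOL4a* and -0.49, 2.60 and -1.08 for *GmCOL4b* on the log2 scale.

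LD-SD minus LD also differed between the time points, for *GmCOL4a* (adjusted p = 1.98e-26 in limma) and for *GmCOL4b* (adjusted p = 6.13e-31), where 70.5% of all transcripts passed. It was -0.27, 2.05 and -0.61 for *GmCOL4a* and -0.29, 2.22 and -0.44 for *GmCOL4b*. With 3 libraries in each group, single libraries were not tested for standing apart from their group.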

How the results depend on the processing

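At T3, both short-day treatments stayed above LD and past the threshold for both genes under every alternative run. Other results changed as follows, and the cause was not tested. LD-SD minus LD at T1 of *GmCOL4b* was -0.29 with a pseudocount of 0.1 (adjusted p = 0.0588 in limma), -0.29 without a filter (0.0544), -0.26 with quantile normalization (0.0731) and -0.23 without *Glycine soja*. That of *GmCOL4a* was -0.29 without the 7 libraries in doubt and then passed. LD-SD minus SD of *GmCOL4a* at T3 was -0.0576 with median-of-ratios factors. The ratio of LD-SD minus LD at T5 was -0.22 without *Glycine soja* and then passed, and that of T3 minus T1 in LD was 0.0158.

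With 1 replicate left out, *GmCOL4a* ranged from -0.41 to -0.17 for LD-SD minus LD at T1, -0.74 to -0.31 at T5, -0.13 to 0.0394 for LD-SD minus SD at T1, -0.0536 to 0.12 at T3 and -0.0287 to 0.42 at T5, and -0.0219 to 0.29 for T3 minus T1 in SD. *GmCOL4b* ranged from -0.41 to -0.23 for LD-SD minus LD at T1, -0.53 to -0.28 at T5 and -0.42 to -0.29 for LD-SD minus SD at T3. The ratio ranged from 0.14 to 0.39 for SD minus LD at T5, -0.00445 to 0.0685 for LD-SD minus LD at T1, -0.22 to -0.14 at T3, -0.29 to -0.0326 at T5, and -0.0845 to -0.00291 for T3 minus T1 in LD, and the adjusted p among genotypes in LD from 0.00753 to 0.943 (permutation tests).

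Libraries of the same letter, photoperiod and time point tended to deviate together, but not in every pair: 376 of 561 pairs correlated above 0.1 (mean 0.187, lowest -0.361), so the letters were not taken as a pairing. With a replicate block, LD-SD minus LD at T1 of *GmCOL4a* was -0.27 (adjusted p = 0.0436 in limma). The adjusted p of *GmCOL4b* was then 0.0263 among genotypes in LD and 0.0396 for the interaction of genotype and LD-SD minus LD (limma). Comparisons with LD-SD under the block also left out the library without a letter, so both changes cannot be told apart there. Of the 5 transcripts most like each gene, 1 was kept for *GmCOL4a* and 3 for *GmCOL4b* with Spearman's correlation, 3 and 2 with a minimum mean of 10 RPKM, and 3 for *GmCOL4b* with SD and LD groups alone. Depth limits *GmCOL4b* most, at T5 in SD.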
